A study of Mus musculus with 6 samples.

Results

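The genes described here are the Hedgehog (HH) co-receptors and signal transducers Gas1, Cdon, Boc, Ptch1, Hhip, Smo, Sufu and Kif7, measured by RNAseq in mouse pancreatic fibroblasts. They were taken by gene symbol from a table of reads counted on 14831 genes, and 7 of the 8 were found. No row carries the symbol Hhip. A row without a symbol has the identifier that the GENCODE M21 annotation gives to Hhip (ENSMUSG00000064325.4), and its values are given separately and not counted among the 7. All 7 passed the filter on low counts and were tested, among 14289 genes in all.

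The libraries are 3 labelled WT and 3 labelled Gli2-/-;Gli3-/- (called KO-labelled here), each from a confluent well of immortalized fibroblasts of mixed strain. In the study's methods such lines were grown out of the pancreas of adult mice with floxed Gli alleles and immortalized. Control lines were then infected with an eGFP adenovirus and a dsRed lentivirus, and KO lines with an eGFP and a Cre adenovirus, both driven by the CMV promoter, and infected cells were sorted by flow cytometry. Floxed alleles, immortalization, the eGFP virus and sorting were thus shared by both groups, and the second virus was not. The labels call the wells independent, but how many lines they came from is not given in the sources used here, so p values measure the spread between wells, which may be technical. The stated medium, DMEM with calf serum and antibiotics, names no HH ligand or agonist.

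HH ligands bind PTCH1 on the receiving cell together with the co-receptors GAS1, CDON and BOC. Binding lifts the inhibition of SMO by PTCH1, SMO accumulates in the primary cilium, and KIF7 and SUFU pass the signal to the GLI transcription factors. Active signaling is known to raise transcription of Ptch1, Hhip and Gli1, which act in feedback, and in several embryonic tissues to lower that of Gas1, Cdon and Boc. In pancreatic cancer the ligands come from epithelial cells and act on fibroblasts.

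The targeted genes were read first. Gli2, mainly an activator, had 809, 944 and 868 counts in the WT-labelled libraries and 1932, 2316 and 1926 in the KO-labelled ones. Gli3, mainly a repressor, had 392, 416 and 398 counts against 1434, 1637 and 1404. Both were higher in every KO-labelled library, which is not what a loss of the whole transcript would give, and every direction given below rests on these labels. A count over a whole gene does not separate floxed exons from the rest, so these values do not show whether the exons targeted by Cre were present, and they do not show that labels were exchanged. By the study's methods, recombination in such lines was checked with qPCR and western blots. The paper reports from these that Gli2 and Gli3 were deleted in its KO lines, and those measurements are not analysed here. Gli1, an activator that is itself a target of the pathway, had 40, 50 and 37 counts in the WT-labelled libraries and 4, 10 and 13 in the KO-labelled ones. Its log2 fold change was -2.40 with a standard error of 0.31 (Benjamini-Hochberg adjusted p = 2.30e-05, edgeR's quasi-likelihood test). Gli1 passed the filter on low counts through the WT-labelled libraries, where it is higher, and had 13 counts or fewer in the KO-labelled ones. Fold changes are given as labelled KO relative to labelled WT, and a gene was called where it differed by 1.5-fold or more with an adjusted p below 0.05.

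Libraries held between 31728420 and 41035931 counts. Pairs of libraries within a group differed by more than sampling noise, at 2.50 to 7.74 in chi-square units per degree of freedom. The fibroblast gene Col1a1 was at 15980 ± 871 CPM (counts scaled to library size) in the WT-labelled libraries and 16111 ± 408 in the KO-labelled ones (SD, n = 3 each), whereas the fibroblast markers Pdpn and Fap were not in the table. The 12 of 14 fibroblast markers in the table summed to between 46643 and 49216 CPM in the former and between 38735 and 40399 CPM in the latter, with Thy1 at 0.390 CPM or less on average in both. Pdgfra, Pdgfrb, Dcn, Col3a1 and Lum were called lower and S100a4 higher in the KO-labelled libraries. All 6 listed mesothelial markers (Msln, Upk3b, Wt1, Lrrn4, Upk1b and Bnc1) were called higher there, with a summed level between 24.4 and 27.6 CPM in the WT-labelled libraries and between 350 and 354 CPM in the KO-labelled ones. Epithelial markers summed to at most 13.8 and 30.4 CPM, with 4 of 8 in the table and Epcam absent from it. Acinar markers, of which Cela1 alone was in the table, reached 8.84 and 15.4 CPM, pericyte markers 11.2 and 28.7 CPM (2 of 6 in the table) and Schwann cell markers 11.2 and 18.1 CPM (4 of 6). Macrophage markers reached 60.8 and 54.1 CPM, with Ptprc and Adgre1 not in the table, and Vwf, the 1 endothelial marker in it, was at 1.15 ± 0.392 and 0.847 ± 0.0885 CPM (SD, n = 3 each). The part of the mesothelial and other markers in the differences described below was not tested. In bulk RNA, fewer cells of a type and less RNA per cell cannot be told apart.

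The promoter windows of Gas1, Ptch1 and Hhip are shown because these 3 genes had the largest differences among the 8. Each runs from 250 bases before a RefSeq transcript start to 50 bases after it on GRCm38.p6, on the minus strand and written 5′ to 3′, with the bases from the start onwards in capitals. The windows lie at chr13:60177486-60177785 for Gas1, chr13:63565686-63565985 for Ptch1 and chr8:80057959-80058258 for Hhip. The Ptch1 window surrounds a start inside the gene as GENCODE M21 draws it, and so does that of Cdon, searched below. The Gas1 window lies wholly before the gene as drawn there. Other starts of these genes were not read.
Gas1: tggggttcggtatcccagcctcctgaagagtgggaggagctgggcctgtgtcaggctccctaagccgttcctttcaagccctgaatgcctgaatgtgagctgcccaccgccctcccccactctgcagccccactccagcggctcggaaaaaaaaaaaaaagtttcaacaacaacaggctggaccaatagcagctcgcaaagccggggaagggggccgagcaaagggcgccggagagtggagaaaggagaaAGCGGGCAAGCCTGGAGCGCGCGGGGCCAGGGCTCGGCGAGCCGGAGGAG
Ptch1: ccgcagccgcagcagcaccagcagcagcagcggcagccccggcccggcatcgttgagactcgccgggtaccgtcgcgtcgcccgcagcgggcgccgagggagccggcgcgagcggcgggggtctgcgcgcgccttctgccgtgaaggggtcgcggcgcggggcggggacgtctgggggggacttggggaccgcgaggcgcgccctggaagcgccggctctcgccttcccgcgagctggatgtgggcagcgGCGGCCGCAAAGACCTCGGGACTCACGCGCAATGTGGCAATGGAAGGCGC
Hhip: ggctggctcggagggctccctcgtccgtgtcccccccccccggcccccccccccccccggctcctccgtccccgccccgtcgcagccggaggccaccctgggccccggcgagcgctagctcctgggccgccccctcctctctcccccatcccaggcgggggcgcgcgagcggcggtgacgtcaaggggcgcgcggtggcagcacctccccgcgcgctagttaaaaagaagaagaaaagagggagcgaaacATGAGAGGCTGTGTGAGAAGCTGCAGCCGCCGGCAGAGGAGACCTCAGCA
G and C made up 62.3%, 76.3% and 73.7% of these windows, against a median of 52.7% over all 32851 windows. The GLI binding motif GACCACCCA, searched on both strands, was found in 83 windows of the genome (0.253%) and in none of the 7 windows available for the 8 genes. Its core ACCACCC was in 1514 windows (4.61%) and likewise in none of the 7. No match says only that these letters are not in these windows.

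Among the co-receptors, Gas1 differed most and Boc least. Gas1 (chr13:60174405-60177365), a GPI-anchored protein that binds HH ligand with PTCH1, was at 23.3, 23.3 and 22.8 CPM in the WT-labelled libraries and at 93.6, 82.9 and 80.5 CPM in the KO-labelled ones. The groups lay far apart, and the KO-labelled libraries varied more among themselves (coefficient of variation 8.19% against 1.26%). Gas1 was 3.71-fold higher in the KO-labelled libraries (95% interval 3.40 to 4.04, log2 fold change 1.89, adjusted p = 2.65e-11, edgeR's quasi-likelihood test), and 4.35% of the genes tested had a larger change in either direction. Gas1 is a single exon, and 589 of its 2961 exonic bases are shared with Gm48488 on the opposite strand. Whether counting used strand is not given in the sources used here, and Gm48488 had at most 16 counts in any library.

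Cdon (chr9:35421128-35507652), an immunoglobulin superfamily co-receptor, was at 90.7, 97.2 and 94.6 CPM in the WT-labelled libraries and at 128, 133 and 147 CPM in the KO-labelled ones. Every KO-labelled library was higher, by 1.44-fold on average (95% interval 1.34 to 1.55, adjusted p = 9.95e-07, edgeR's quasi-likelihood test), which is under the fold limit of the call. With libraries scaled by upper-quartile factors it passed the limit (log2 fold change 0.59). Boc (chr16:44485049-44558897), the paralog of Cdon, was at 61.9, 61.6 and 63.2 CPM against 64.3, 63.4 and 64.0 CPM. These ranges did not overlap, but the gap was small: the ratio was 1.03 with a 95% interval from 0.978 to 1.08, and the adjusted p was 0.33 (edgeR's quasi-likelihood test), or 0.0237 with upper-quartile factors. The interval leaves out any change of Boc as large as that of Cdon.

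**Figure D1:**
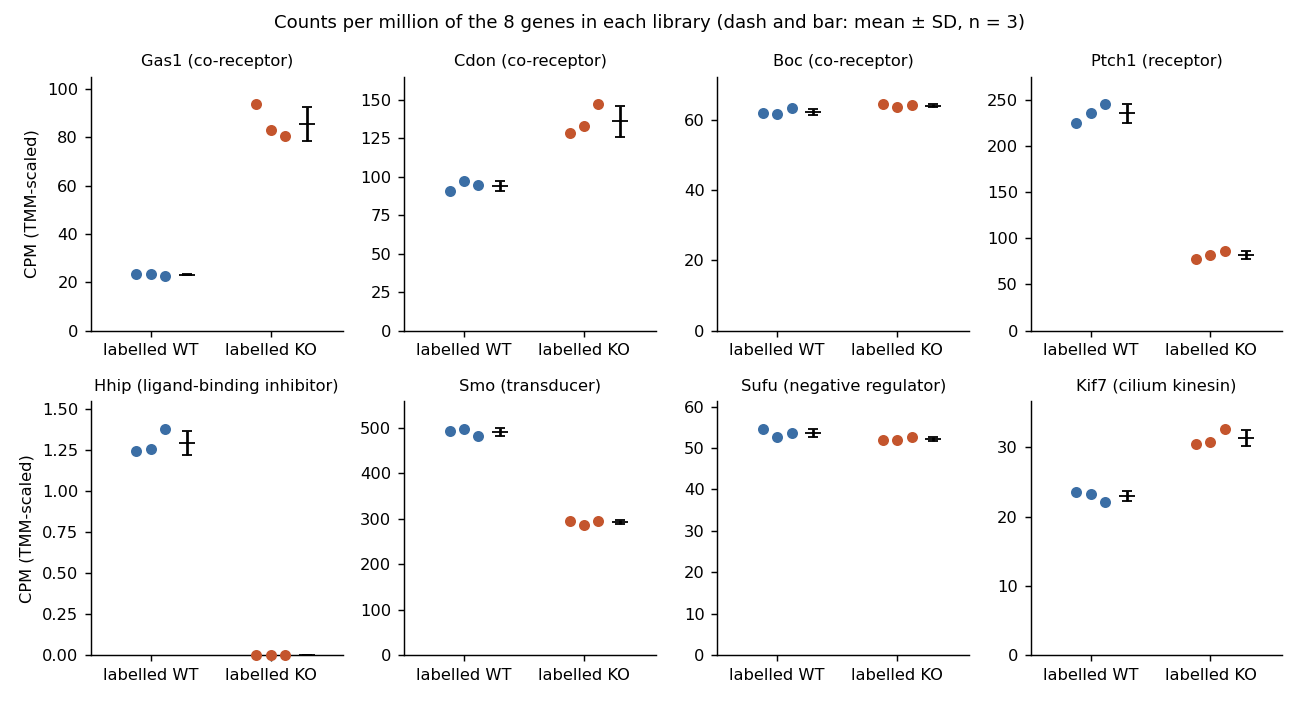
Each panel plots 1 gene on its own linear axis from 0, in CPM scaled by TMM factors; points are libraries (3 labelled WT in blue, 3 labelled KO in orange), and the dash and bar beside them are the mean ± SD. Gas1 sits near 23.1 CPM in the WT-labelled libraries and near 85.7 CPM in the KO-labelled ones, Ptch1 near 235 and 81.8 CPM, and Boc and Sufu are nearly level.

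Both genes that encode inhibitors at the cell surface were lower in the KO-labelled libraries. Ptch1 (chr13:63508328-63573598), the HH receptor and a feedback target, was at 225, 236 and 245 CPM in the WT-labelled libraries and at 77.1, 82.0 and 86.4 CPM in the KO-labelled ones. It was thus lower in every KO-labelled library, at 0.347 of the level in those labelled WT (95% interval 0.325 to 0.371, log2 fold change -1.53, adjusted p = 2.16e-11, edgeR's quasi-likelihood test). Hhip (chr8:79965851-80058006), a membrane protein that sequesters ligand, had 39, 42 and 44 counts in the WT-labelled libraries and 0 in each KO-labelled library. Against a floor of 3 counts per library it was at least 15.7-fold lower in the KO-labelled libraries. Hhip passed the filter on low counts through the WT-labelled libraries alone, and even there its level was 1.29 ± 0.0747 CPM (SD, n = 3).

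Smo (chr6:29735503-29761365), the transducer that PTCH1 holds inactive, had the highest level of the 8 genes in both groups. It was at 494, 499 and 482 CPM in the WT-labelled libraries and at 296, 287 and 295 CPM in the KO-labelled ones, with little spread in either group. The ratio was 0.595 (95% interval 0.570 to 0.622, log2 fold change -0.75, adjusted p = 2.94e-10, edgeR's quasi-likelihood test), and 14.5% of the genes tested had a larger change.

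Sufu and Kif7 differed less than Smo. Sufu (chr19:46396896-46488804), which binds GLI proteins in the cytoplasm and restrains them, was at 54.7, 52.8 and 53.7 CPM in the WT-labelled libraries and at 52.0, 51.9 and 52.8 CPM in the KO-labelled ones. The ratio was 0.972 (95% interval 0.923 to 1.02, adjusted p = 0.33, edgeR's quasi-likelihood test), and its sign turned to a log2 difference of 0.02 when libraries were scaled by upper-quartile factors. Kif7 (chr7:79698098-79715720), a kinesin of the cilium tip that organizes GLI and SUFU, was at 23.5, 23.3 and 22.1 CPM against 30.5, 30.8 and 32.7 CPM. Every KO-labelled library was higher, by 1.36-fold (95% interval 1.27 to 1.46, adjusted p = 4.84e-06, edgeR's quasi-likelihood test), again under the fold limit. Kif7 shares 51 exonic bases with Ticrr and 877 with 9330171B17Rik on the opposite strand. Ticrr had 137, 100 and 104 counts against 296, 313 and 259, so its counts moved in the same direction as those of Kif7, and its part in the Kif7 difference was not tested.

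By the call, 1 of the 7 genes (Gas1) was higher and 2 (Ptch1 and Smo) were lower in the KO-labelled libraries, where 17.7% of all genes tested were called, 11.6% higher and 6.1% lower. Without the fold limit 3 of the 7 were higher and 2 lower, against 58.7% of all genes, 29.9% higher and 28.8% lower. The groups did not overlap for any of the 7, with 4 higher and 3 lower (Sufu by less than the digits printed above show), and they did not overlap for 64.2% of all genes tested, 32.9% higher and 31.3% lower. The wells were close to each other (common biological coefficient of variation 3.74%), so small differences such as that of Kif7 pass the test, and the share of the 7 that passed is to be read against these shares.

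**Figure D2:**
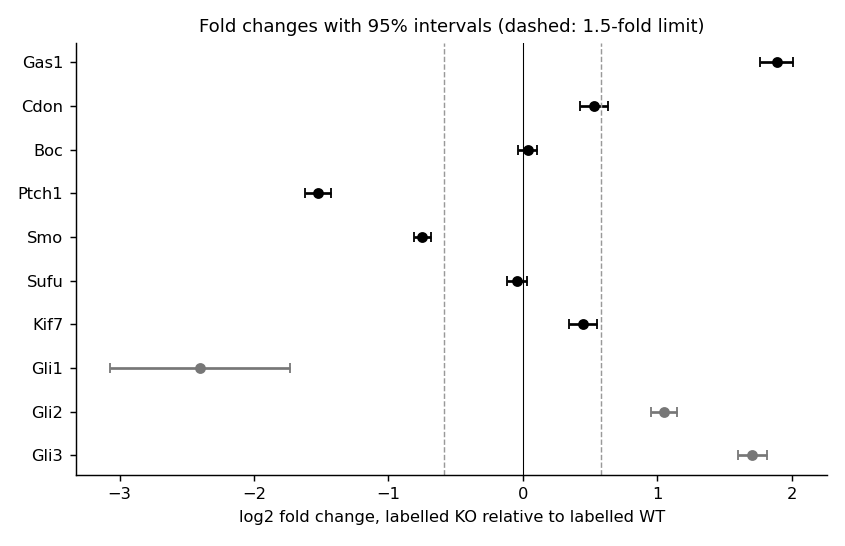
Points are log2 fold changes of the 7 tested genes (black) and of Gli1, Gli2 and Gli3 (grey), labelled KO relative to labelled WT, with 95% intervals, and dashed lines mark a 1.5-fold change. Gas1 at 1.89, Ptch1 at -1.53 and Smo at -0.75 lie outside the lines with their intervals, and Boc at 0.04 and Sufu at -0.04 lie at 0. Hhip, at 0 counts in every KO-labelled library, is left out.

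Levels of different genes were compared per length, as TPM (the counts of a gene divided by its length, on a scale with the same total in every library) over the union of exons. In the WT-labelled libraries the order of mean TPM was Smo (336), Ptch1 (63.7), Boc (53.7), Cdon (46.9), Gas1 (29.9), Sufu (26.8), Kif7 (19.2) and Hhip (0.547), and no neighbours in this order overlapped between libraries. In the KO-labelled libraries it was Smo (205), Gas1 (114), Cdon (69.5), Boc (56.6), Kif7 (27.0), Sufu (26.8) and Ptch1 (22.7), where Kif7 and Sufu overlapped, with Hhip at 0. Gas1 thus stood below Boc and Cdon in the former and above both in the latter, and Ptch1 went from the place next to Smo to the lowest place above Hhip. With the longest transcript as the length, Sufu (34.3 TPM) stood above Gas1 (22.5 TPM) in the WT-labelled libraries, and Ptch1 (23.3 TPM) above Kif7 (20.3 TPM) in the KO-labelled ones, so these orders depend on the length used.

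The 3 co-receptor genes together were at 126, 131 and 134 TPM in the WT-labelled libraries and at 246, 235 and 239 TPM in the KO-labelled ones. The sum was 1.84-fold higher in the KO-labelled libraries (130 ± 3.94 against 240 ± 5.56 TPM, SD, n = 3 each, exact two-sided permutation p = 0.1, the smallest that 3 libraries against 3 allow). Gas1 made up 23.5%, 22.9% and 22.5% of it in the WT-labelled libraries and 50.4%, 47.1% and 44.8% in the KO-labelled ones, a difference of 24.5 percentage points (exact two-sided permutation p = 0.1). Without Gas1, the sum of Cdon and Boc was 101 ± 3.66 TPM in the WT-labelled libraries and 126 ± 5.18 TPM in the KO-labelled ones. The share of Boc was 41.1% in the former and 23.6% in the latter, although its level differed little.

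**Figure D3:**
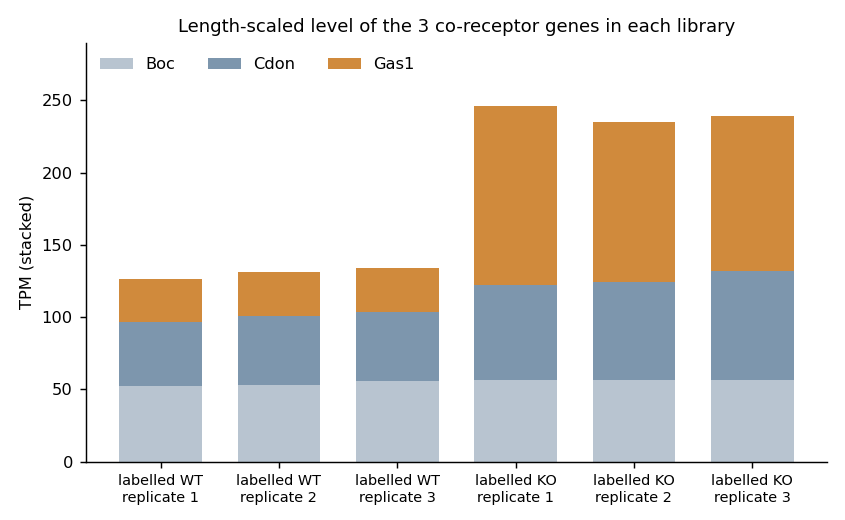
Stacked bars show the TPM of Boc, Cdon and Gas1 in each of the 6 libraries on a linear axis from 0. The Boc segments are of nearly the same height in all 6, and Gas1, at the top, grows from 29.9 TPM on average in the WT-labelled libraries to 114 TPM in the KO-labelled ones.

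The balance between members was also read as ratios of TPM, chosen with the values known and given as a description. The co-receptor sum was 2.05 ± 0.0706 times the level of Ptch1 in the WT-labelled libraries and 10.6 ± 0.827 times in the KO-labelled ones (SD, n = 3 each). The ratio of Ptch1 to Smo was 0.190 ± 0.0110 and 0.111 ± 0.00665, without overlap between the groups. Kif7 relative to Sufu was 0.719 ± 0.0253 and 1.01 ± 0.0296. The size of these ratios depends on the length used. With the longest transcript, Kif7 was at 14.5 TPM and Sufu at 34.3 TPM in the WT-labelled libraries. In the KO-labelled ones they were then at 20.3 and 34.2 TPM.

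The rest of the pathway was described from 7 lists of 94 other genes, of which 82 were in the table and 79 were tested. Of these 9 were called higher and 8 lower in the KO-labelled libraries, or 21.5%, with a median log2 fold change of 0.00232, against 17.7% and a median of 0.00197 over all genes tested. Without the fold limit 70.9% passed, against 58.7%. The counts of each list below are to be read against the shares of all genes tested. These were 11.6% called higher and 6.1% lower, or 29.9% and 28.8% without the fold limit.

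Among genes for the ligands and their release, Shh, Ihh and Dhh were not in the table. Of the 5 tested, 1 was called higher, with a median log2 fold change of 0.42: Scube3, which helps to release ligand from the producing cell, had 56, 60 and 83 counts against 101, 148 and 108. With no fold limit, 3 of the 5 were higher and 0 lower. Of the 4 tested among the other receptors and ligand-binding proteins, 2 were called higher and 1 lower, with a median of 1.06. Dropping the fold limit gave 3 higher and 1 lower. The glypican Gpc6 was at 228 ± 12.6 CPM in the WT-labelled libraries and 108 ± 6.81 in the KO-labelled ones (SD, n = 3 each), or -1.08 on the log2 scale (adjusted p = 1.45e-09, edgeR's quasi-likelihood test). Gpc3, a glypican that binds HH ligand in competition with PTCH1, moved the other way, from 0 counts in each WT-labelled library to 259, 338 and 270, at least 84.5-fold higher. Lrp2, an endocytic receptor, had 16, 21 and 16 counts against 79, 64 and 68. Vtn and Ptchd1 of this list were too low to be tested.

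Of 17 genes that act on Smo or its trafficking, none was called higher and 1 lower, with a median log2 fold change of -0.19, and without the fold limit 1 was higher and 11 lower. The called gene was Arrb1, a β-arrestin, at 78.6, 77.9 and 82.9 CPM in the WT-labelled libraries and 36.9, 39.4 and 38.8 CPM in the KO-labelled ones (log2 fold change -1.05, adjusted p = 2.72e-10, edgeR's quasi-likelihood test). Of 16 genes of the protein kinase A and Gpr161 branch, which restrains the pathway in the absence of ligand, 2 were called higher and 2 lower, with a median of 0.10. With no fold limit, 8 of these 16 were higher and 2 lower. Gpr161, the ciliary receptor of this branch, was at 25.4 ± 0.839 CPM against 15.9 ± 0.428 (SD, n = 3 each; log2 fold change -0.68, adjusted p = 1.61e-07, edgeR's quasi-likelihood test). The inhibitory G protein gene Gnai1 had 256, 278 and 292 counts against 444, 618 and 444. Adcy5 and Prkar1b also passed, but with at most 37 and 16 counts in any library. None of the 16 genes for the processing and regulation of GLI proteins was called, with a median of -0.01, and without the fold limit 3 were higher and 5 lower.

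Of the 3 GLI factors, Gli2 and Gli3 were called higher and Gli1 lower. Of 19 tested genes listed as pathway targets, which include Gli1, 2 were called higher and 4 lower, with a median log2 fold change of -0.16, and without the fold limit 6 were higher and 11 lower. The growth factor gene Igf2 had 86, 86 and 71 counts in the WT-labelled libraries and 22, 23 and 11 in the KO-labelled ones, and Spp1 (osteopontin) was at 10.3 ± 1.63 and 4.15 ± 1.44 CPM (SD, n = 3 each). Osr1, a transcription factor gene named here after its values were seen, was called lower as well. In the other direction, Mycn had 47, 21 and 20 counts against 160, 202 and 159, and Foxc2 had a log2 fold change of 1.07 (adjusted p = 2.65e-04, edgeR's quasi-likelihood test). Listed targets were thus called in both directions.

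**Figure D4:**
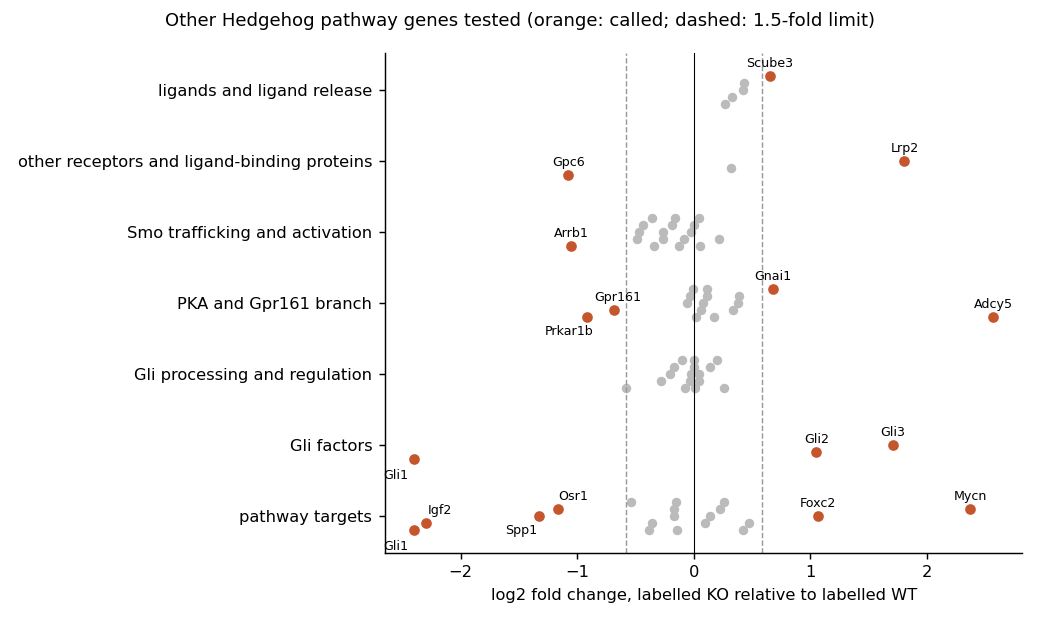
Each point is a tested gene, placed by its log2 fold change (labelled KO relative to labelled WT) in the row of its list, and spread vertically for legibility; orange points were called and are named, and dashed lines mark a 1.5-fold change. Points for genes acting on Smo lie mostly left of 0 within the lines, those for GLI processing all lie within the lines, with Stk36 at -0.58 next to the left one, and the pathway targets spread from -2.40 (Gli1, also shown with the GLI factors) to 2.37 (Mycn). Gpc3, at 0 counts in every WT-labelled library, is left out.

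For the members the gene nearest to it over the 6 libraries was found by the distance between log2 CPM values centred on the mean of each gene, where 0 is the same pattern. Smo was nearest to Il3ra (distance 0.0391), Ptch1 to Klhl29 (0.0936), Gas1 to Depdc1a (0.143) and Cdon to Hebp1 (0.0909). Sufu was nearest to Utp6 (0.0209) and Kif7 to Zfp202 (0.0419). Hhip had no gene as close, the nearest being BC147527 at 0.368.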

How the data were processed

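RNAseq counts of 6 libraries of polyadenylated RNA were analysed. The submitters' processing notes name STAR 2.7.2b, featureCounts, limma and the build GRCm38.p6. The authors deposited raw counts per gene, without normalization and with low genes removed, and log2 CPM values, which were used only as an alternative. The test was edgeR 4.0.16 under R 4.3.3 (TMM factors, filterByExpr, quasi-likelihood F test, Benjamini-Hochberg adjustment over 14289 genes). Standard errors and 95% intervals came from the same fit. The floor of 3 counts corresponds to 0.0720 to 0.0957 CPM, and floors cover counting error only. TPM used exon unions of GENCODE M21, which held 14822 of the 14831 identifiers without their version. Promoter windows came from RefSeq, with none given for Boc.

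Groups were taken from the genotype labels. The members, the pathway and marker lists and the tests were chosen with earlier results of these data known. Named genes are the 8 members, the GLI factors, up to 3 called genes in each direction from each pathway list whose higher group had 10 counts or more throughout, and the gene nearest to each member; that of Boc is not reported here. Alternatives were scaling by RLE, by upper quartiles or by total counts, other filters on counts and fold limits, glmTreat, DESeq2 1.42.0, limma 3.58.1 on the counts and on the deposited log2 values, other length scalings, and leaving out each library in turn. The fit was tested on simulated counts.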

Additional observations from a re-analysis of the deposited data

How the results depend on the processing

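Of 185 fold changes of the members and GLI factors under the alternatives, 180 kept their direction and their side of the call. Other fold limits and glmTreat reuse the fold changes of the main fit, so under these only the call could change. With upper-quartile factors, which moved the median log2 fold change of all genes to 0.06, Cdon passed the fold limit (0.59), so that 2 members were called higher, and Sufu turned from -0.04 to 0.016 (adjusted p = 0.718, edgeR's quasi-likelihood test). Without the fold limit 3 members were higher, and 26 other pathway genes were higher and 30 lower. All genes called rose from 1660 higher and 871 lower to 4277 and 4114. With a limit of 2-fold 1 member, Ptch1, stayed lower, and 1052 genes were called higher and 404 lower in all. Leaving out each library in turn gave 1 member higher and 2 lower each time, and 9 to 10 other pathway genes higher and 7 to 10 lower. The log2 difference of the co-receptor sum was then 0.86 to 0.90 and that of the Gas1 share 23.0 to 25.8 percentage points. Hhip and Gli1 could not be tested under a minimum of 10 counts in every library. No paired analysis was possible because the labels give no replicate numbers. Depth limits what can be said of Hhip, Gli1, Vtn and Ptchd1, which had 50 counts or fewer in every library, and wells cannot show how independent lines would vary.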

Other observations

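Among the 3 libraries labelled KO, the one with the most Gas1 (93.6 CPM) had the least Cdon (128 CPM), Ptch1 (77.1 CPM) and Kif7 (30.5 CPM), and the one with the least Gas1 (80.5 CPM) had the most of these 3 genes (147, 86.4 and 32.7 CPM). With 3 wells this is a description. Outside the rule for named genes, Stk36, a kinase that regulates GLI proteins, was at 16.2 CPM on average in the WT-labelled libraries and 10.8 CPM in the KO-labelled ones, with a log2 fold change of -0.58 just inside the fold limit.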
